A study of Saccharomyces cerevisiae with 6 samples.

Results

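Ribosome assembly in the budding yeast Saccharomyces cerevisiae is followed here through 68 genes whose current symbol is UTP, NOP, RRP, NOC, RPF or DBP with a number, together with MAK16. The symbols carry the history of the field, since UTP stands for proteins of the U3 particle, RRP for ribosomal RNA processing and DBP for DEAD-box protein. All 68 genes were on the expression array, each by 1 probe set, among 5449 genes tested. A homozygous deletion strain was measured for 9 of them, among 4235 strains with a value on both barcode arrays.

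Ribosome biogenesis begins in the nucleolus, where RNA polymerase I makes a long precursor RNA. The small-subunit processome, a particle built on the nascent precursor from the UTPA, UTPB and UTPC complexes and the U3 small nucleolar RNP (snoRNP), cleaves and folds the part that becomes the small subunit. Other factors mature the large subunit, and the RNA exosome trims and degrades precursor ends. In yeast most genes of this pathway are expressed as a regulon that is high in fast growth and is shut down in stress, together with the genes of ribosomal proteins.

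Expression was measured in strain BY4741 and in a fun30 mutant described as isogenic, both in log phase in synthetic complete medium, with 2 arrays for each genotype. FUN30 encodes an ATP-dependent nucleosome remodeller, and the study addresses its part in the resection of DNA ends. In the integration experiment a library of homozygous diploid deletion mutants received a URA3 cassette that replaces ISU1, a URA3 cassette that replaces SOD2, or the circular control plasmid pRS416, and transformants grew without uracil. Each cassette pool was compared with a plasmid pool on 1 two-colour barcode array. The labels do not say whether the expression replicates came from separate cultures or how many isolates of the mutant were used, and p-values here reflect only the variation among the 4 arrays, which may be technical.

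FUN30 itself had a log2 signal of 3.37 and 3.55 on the deletion arrays and 9.63 and 9.40 on the wild-type arrays, where 5.24 marks background (the 95th percentile of probe sets annotated to genes that are not in the yeast table). The median log2 signal of all tested probe sets lay between 10.59 and 10.61 on the 4 arrays. The 5 a-specific genes examined were bright, with mean signals of 11.52 to 13.54, and the 4 alpha-specific genes had 4.66 to 9.23. The strains also differed at MET17, a gene of sulphur assimilation, which read 13.05 and 12.94 on the deletion arrays and 5.49 and 5.47 on the wild-type arrays, and in a run of 47 probe sets on chromosome IV with a median difference of 0.85. None of the 68 genes lies in that run (0 of 68). Means of all 5 a-specific genes were lower in the deletion, against 50.7% of all probe sets, with 0 past an adjusted p of 0.05 (limma). At an unadjusted p under 0.05 there were 3 of them (limma), against 22.2% of all probe sets. Of the alpha-specific genes 3 were higher and 1 rose past the adjusted threshold, against 1.36% of all probe sets. That gene was STE3, the receptor for a-factor, which rose by 0.48 (adjusted p = 0.0343, limma). Its call was lost without deletion replicate 2, without wild type replicate 1 and with the chromosome IV run left out. The effect of losing FUN30 and that of other differences between the strains cannot be told apart.

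In the fun30 deletion the 68 genes were lower as a group, by a modest amount. The mean signal was lower in the deletion for 63 of 68 genes, against 50.7% of all 5498 tested probe sets, and the median difference was −0.38 on the log2 scale (1.30-fold lower), against −0.003 for all. By limma with Benjamini-Hochberg adjustment over all probe sets, 5 genes fell (background 1.29%) and 0 rose (background 1.36%). The 5 were UTP4, UTP13, UTP21, RRP12 and MAK16. At an unadjusted p under 0.05 (limma), 38 genes were lower, against 12.5% of all probe sets, and 39 differed in either direction, against 22.2%. Both deletion arrays lay below both wild-type arrays for 51 genes (background 30%) and above them for 1 gene, DBP1 (background 28.5%), and the groups overlapped for the other 16. The genes with a difference below −0.5 numbered 22 of 68, while 4.04% of all probe sets lay that low. In bulk cultures like these, fewer cells of a growth state and less RNA per cell cannot be told apart.

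**Figure D1:**
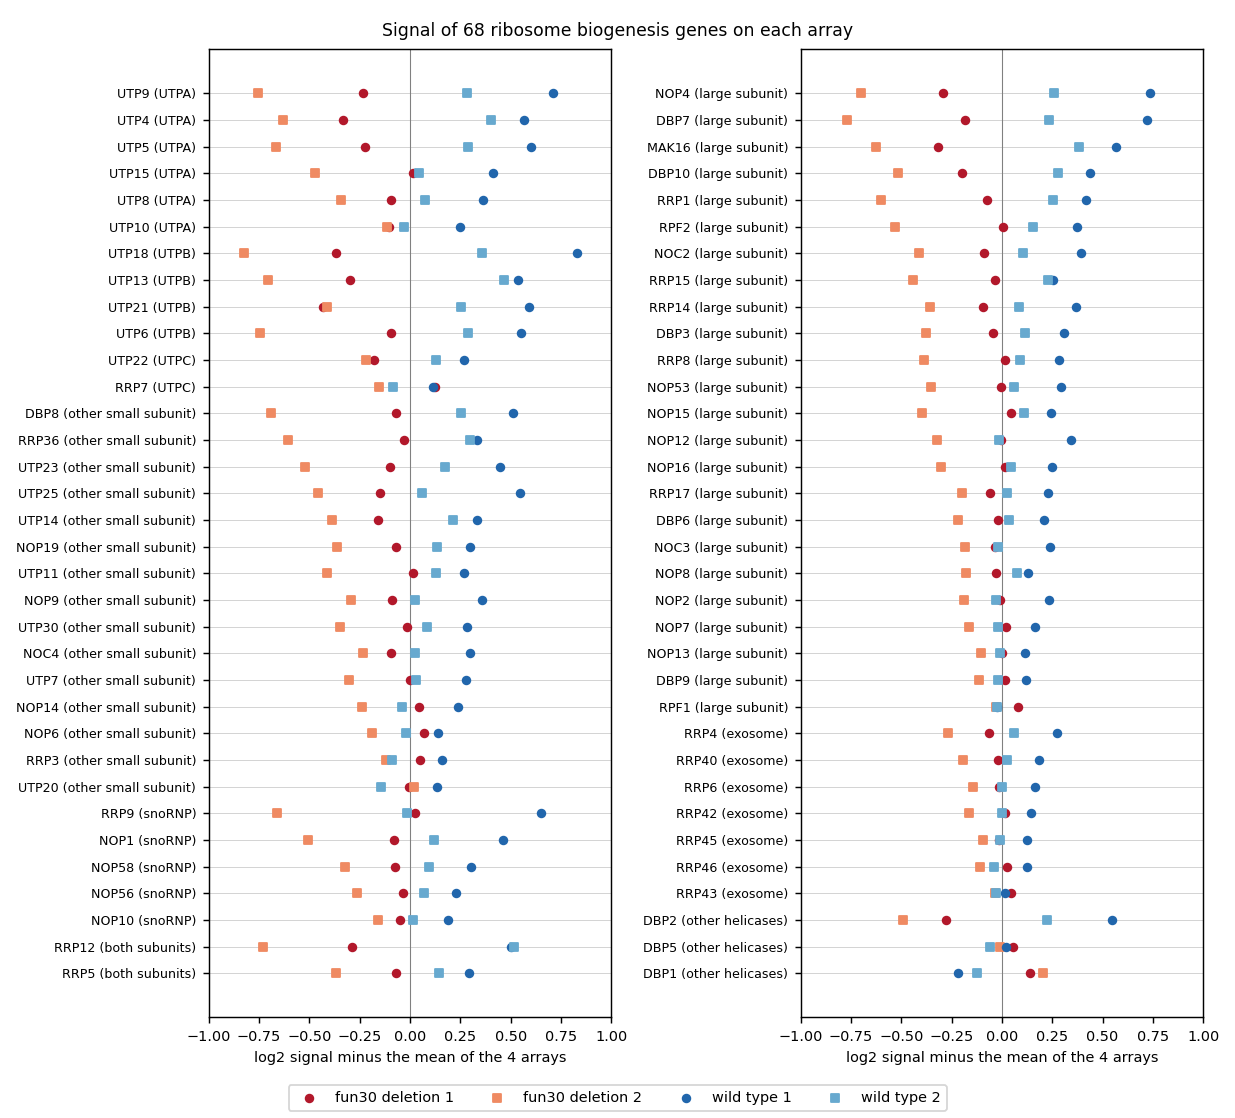
Log2 signal of each of the 68 genes on each of the 4 arrays, as the difference from that gene's mean over the arrays. Red and orange points are the 2 fun30 deletion arrays and blue points the 2 wild-type arrays. Deletion replicate 2 was the lowest array for 64 genes and wild type replicate 1 the highest for 62.

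The arrays of a genotype did not read these genes alike. Deletion replicate 2 was the lowest of the 4 arrays for 64 of 68 genes (34.0% of all probe sets), and wild type replicate 1 was the highest for 62 (38.0% of all probe sets). For 49 genes the order from low to high was deletion replicate 2, deletion replicate 1, wild type replicate 2 and wild type replicate 1, an order found in 18.3% of all probe sets. Over the 68 genes the median difference of replicate 1 minus replicate 2 was 0.28 for the deletion arrays and 0.20 for the wild-type arrays, where all probe sets gave 0.015 and 0.014. Replicate 1 was the higher array for 65 of 68 genes in each genotype.

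How far the genes differed between genotypes therefore depended on the arrays paired. With deletion replicate 2 against wild type replicate 1 the median difference was −0.65. In that pairing 67 of 68 genes were lower (52.0% of all probe sets). At least 2-fold lower were 16 genes and 96 of all 5498 probe sets. With deletion replicate 2 against wild type replicate 2 the median was −0.42, with 65 genes lower (51.8% of all probe sets). With deletion replicate 1 against wild type replicate 1 it was −0.35, with 63 genes lower (50.6% of all probe sets). The closest pair, deletion replicate 1 and wild type replicate 2, differed by −0.11. There 51 genes were lower (48.9% of all probe sets) and 0 were lower by 2-fold (15 of 5498 probe sets). All 4 pairings had a negative median, and the smallest was less than the difference between the arrays within either genotype.

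**Figure D2:**
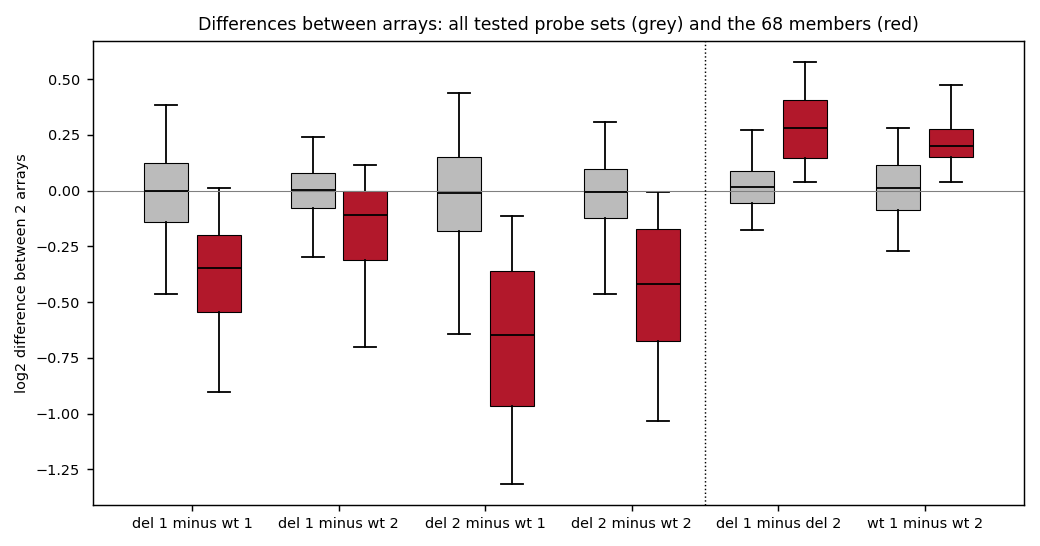
Differences in log2 signal between 2 arrays for all 5498 tested probe sets (grey) and the 68 ribosome biogenesis genes (red). The 4 pairs left of the dotted line compare a deletion array (del) with a wild-type array (wt) and the 2 on the right compare arrays of 1 genotype. Boxes span the quartiles with the median, whiskers the 5th to 95th percentiles. The red medians run from −0.65 to −0.11 between genotypes and lie at 0.28 and 0.20 within them.

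The number of single genes that fell moved with the arrays used. Without deletion replicate 1, 36 genes fell (background 5.58%), and without deletion replicate 2, 11 fell (background 1.84%). Without wild type replicate 2, 9 fell (background 3.78%), and RRP12 was not among them (adjusted p = 0.0545, limma). Without wild type replicate 1 only UTP21 fell (background 0.418%). With the chromosome IV run left out, 2 fell, UTP4 and MAK16 (background 0.826%). The median difference of the 68 genes was −0.22 without deletion replicate 2.

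Genes of growth state also differed between the same arrays. A list of 29 general stress genes, which yeast induces when growth slows, was lower in wild type replicate 1 than in replicate 2. This held in 29 of 29 cases, with a median of −0.19, against 46.3% and 0.014 for all probe sets. Wild type replicate 1 was the highest array for 62 of the 68 ribosome biogenesis genes (38.0% of all probe sets). Between genotypes the stress list had a median difference of 0.14. In the deletion 27 of 29 genes were higher, against 2711 of 5498 probe sets, and 1 rose (background 1.36%). That gene was HSP78, a mitochondrial chaperone inside the chromosome IV run, and its call was lost without wild type replicate 1 (adjusted p = 0.051, limma). Set against wild type replicate 2, deletion replicate 1 differed by −0.0078 in the stress list and by −0.11 in the 68 genes, and deletion replicate 2 by 0.023 and −0.42. The stress genes were bright, with a median log2 signal of 14.1, against 10.26 for the 68 genes. Whether probe sets this bright could show a change of the size seen in the 68 genes was not tested. The part of growth state in the result was not tested.

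Among the complexes that start small-subunit assembly, UTPB and UTPA had group medians further below 0 than UTPC. UTPB, which bridges the U3 snoRNP and the growing precursor, had 4 of 4 genes lower (background 50.7%), with a median of −0.92. Of these 4 genes 2 fell (background 1.29%), and 0 with the chromosome IV run left out (background 0.826%). UTP13, a WD40-repeat subunit, had a log2 signal of 9.10 and 8.70 on the deletion arrays and 9.94 and 9.87 on the wild-type arrays. The groups stood apart by more than the gap within either genotype, and UTP13 fell by 1.01 ± 0.14 (SE, adjusted p = 0.0349, limma). UTP21, another WD40 subunit, read 8.95 and 8.96 on the deletion arrays and 9.97 and 9.63 on the wild-type arrays. It fell by 0.84 ± 0.12 (SE, adjusted p = 0.0374, limma), and it was the 1 gene of the 68 for which deletion replicate 1 was the lowest array. UTP18 had the largest difference of all 68 genes, −1.19 ± 0.21 (SE), from 7.60 and 7.14 on the deletion arrays and 8.80 and 8.33 on the wild-type arrays. Its arrays differed by 0.46 within the deletion and by 0.47 within the wild type, and it did not pass (adjusted p = 0.0641, limma). UTP6 read 9.26 and 8.61 on the deletion arrays and 9.90 and 9.64 on the wild-type arrays, a difference of −0.84 ± 0.23 (SE) that did not pass (adjusted p = 0.127, limma). PWP2 and DIP2 are the UTPB subunits of other names. PWP2 fell by 0.75 (adjusted p = 0.0125, limma), and DIP2 differed by −0.68 (adjusted p = 0.0753, limma).

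UTPA, the complex that binds the first stretch of the precursor as it is transcribed, had 6 of 6 genes lower (background 50.7%) and both deletion arrays below both wild-type arrays for each (background 30%), with a median of −0.67. UTP4 had a log2 signal of 9.03 and 8.73 on the deletion arrays and 9.93 and 9.76 on the wild-type arrays and fell by 0.97 ± 0.12 (SE, adjusted p = 0.0273, limma). UTP9 read 9.19 and 8.67 on the deletion arrays and 10.13 and 9.70 on the wild-type arrays, and its difference of −0.99 ± 0.22 (SE) did not pass (adjusted p = 0.0957, limma). UTP5 read 9.38 and 8.94 on the deletion arrays and 10.21 and 9.90 on the wild-type arrays, with a difference of −0.89 that did not pass (adjusted p = 0.0802, limma). The subunits of UTPA did not differ by one amount. UTP15 and UTP8 had differences of −0.46 and −0.44, and UTP10, the largest protein of the complex, had −0.22. NAN1, the subunit of UTPA with another name, differed by −0.20. UTPC had UTP22 at −0.40, where the groups stood apart, and RRP7 at −0.027, where they overlapped.

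**Figure D3:**
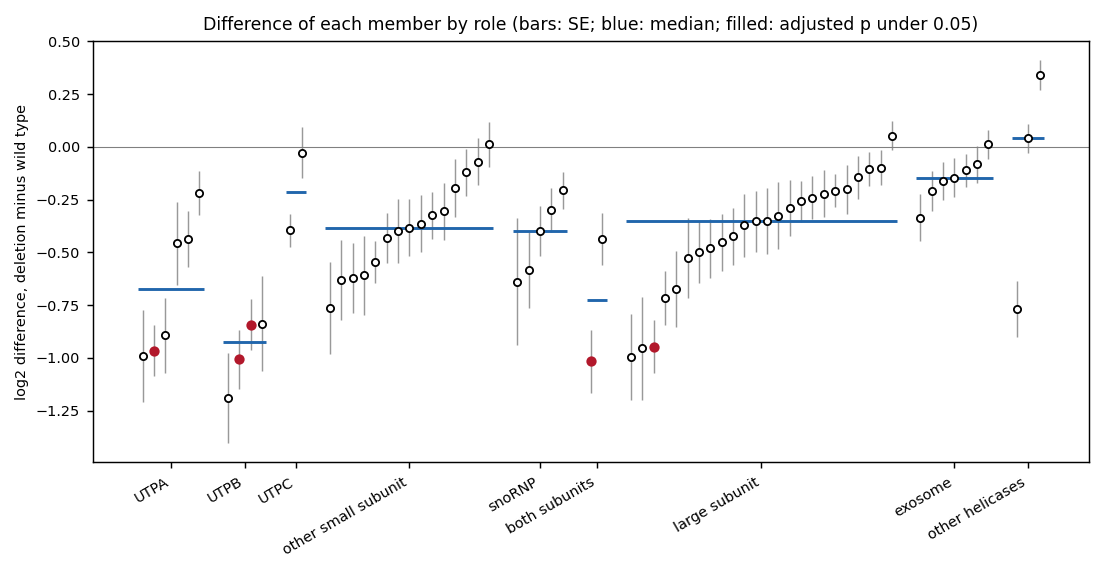
Difference in log2 signal, fun30 deletion minus wild type, for each of the 68 genes grouped by role and sorted within a group. Bars are the standard error from limma, blue lines the group medians, and filled points the 5 genes with an adjusted p under 0.05. UTPB and UTPA have medians of −0.92 and −0.67, the pair of genes serving both subunits has −0.73, and the exosome subunits lie near 0 with −0.15.

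Of the other 15 small-subunit factors, 14 were lower, with a median of −0.38, and 0 fell, with 10 at an unadjusted p under 0.05 (limma, background 22.2%). The median was −0.25 without deletion replicate 2. DBP8, an RNA helicase of the processome, read 8.75 and 8.13 on the deletion arrays and 9.34 and 9.08 on the wild-type arrays (difference −0.76). RRP36 read 8.04 and 7.46 on the deletion arrays and 8.40 and 8.37 on the wild-type arrays, a difference of −0.63 in which the deletion arrays lay 0.58 apart and the wild-type arrays 0.037. UTP23, a protein with an inactive nuclease fold, differed by −0.62, and UTP25 by −0.61. UTP14, the activator of the helicase that releases the U3 RNA, had −0.55. At the other end, the helicase gene RRP3 differed by −0.07 and UTP20, which encodes a very large scaffold protein, by 0.012. For both, the values of the genotypes overlapped. NOP14 and its partner NOC4 had −0.20 and −0.32.

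The means of all 5 snoRNP proteins were lower in the deletion, with a median of −0.40, and 0 fell, with 3 at an unadjusted p under 0.05 (limma, background 22.2%). NOP1, the methyltransferase of the box C/D particles known as fibrillarin in other species, read 12.65 and 12.22 on the deletion arrays and 13.19 and 12.84 on the wild-type arrays. Its difference of −0.58 ± 0.18 (SE) did not pass (adjusted p = 0.161, limma). Its scaffold partners NOP58 and NOP56 had −0.40 and −0.30, and NOP10, of the box H/ACA particles that make pseudouridine, had −0.21. RRP9, the protein specific to the U3 particle, read 8.92 and 8.23 on the deletion arrays and 9.55 and 8.88 on the wild-type arrays. Its difference of −0.64 was no larger than the gap within either genotype, and its groups overlapped.

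Among the proteins that serve both subunits, RRP12, a HEAT-repeat protein of pre-ribosome export, read 9.86 and 9.42 on the deletion arrays and 10.65 and 10.66 on the wild-type arrays. The wild-type arrays nearly coincided, and RRP12 fell by 1.02 ± 0.15 (SE, adjusted p = 0.0386, limma). RRP5, which is needed for cleavages on both sides of the precursor, had −0.44 ± 0.12 (SE) and did not pass (adjusted p = 0.136, limma).

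Of the 24 large-subunit factors, 23 had a lower mean (background 50.7%), with a median of −0.35, and 1 fell (background 1.29%). The median was −0.55 without deletion replicate 1 and −0.18 without deletion replicate 2. The gene that fell with all arrays was MAK16, a nucleolar protein of early large-subunit particles whose name comes from the maintenance of killer virus. It read 7.82 and 7.51 on the deletion arrays and 8.70 and 8.52 on the wild-type arrays and fell by 0.95 ± 0.13 (SE, adjusted p = 0.0301, limma). NOP4, an RNA-binding protein, read 9.75 and 9.34 on the deletion arrays and 10.78 and 10.30 on the wild-type arrays, a difference of −0.99 ± 0.20 (SE) that did not pass (adjusted p = 0.0847, limma). The helicase gene DBP7 read 8.31 and 7.73 on the deletion arrays and 9.22 and 8.73 on the wild-type arrays, with a difference of −0.95 ± 0.24 (SE) that did not pass (adjusted p = 0.119, limma). DBP10, also a helicase gene, read 10.07 and 9.75 on the deletion arrays and 10.70 and 10.55 on the wild-type arrays (difference −0.72, adjusted p = 0.0618, limma), and RRP1 read 9.56 and 9.04 on the deletion arrays and 10.06 and 9.89 on the wild-type arrays (difference −0.67, adjusted p = 0.127, limma). Both deletion arrays lay below both wild-type arrays for 18 of the 24 genes (background 30%). These included the 5 genes above, which were named for a call or a large difference. The RNA helicases of the large subunit ranged widely, since DBP3, DBP6 and DBP9 had −0.42, −0.24 and −0.10. RPF2, which brings the 5S RNP into the particle, had −0.53, and its Brix-family relative RPF1 had 0.053, the 1 positive value in this group. NOP2, a methyltransferase of the large rRNA, and NOP7 differed by −0.20 and −0.14, with overlapping groups.

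The exosome subunits had the median closest to 0 among the groups with a role in ribosome assembly. Of 7 genes, 6 had a lower mean, with a median of −0.15, and 0 fell, with 1 at an unadjusted p under 0.05 (limma, background 22.2%). The median was −0.23 without deletion replicate 1, −0.072 without deletion replicate 2 and −0.073 without wild type replicate 1. RRP4, a cap protein of the exosome, had the largest difference, −0.34 ± 0.11 (SE), which did not pass (adjusted p = 0.177, limma), and the ring protein RRP43 had the smallest, 0.011. RRP6, the nuclear exonuclease, differed by −0.16.

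The name families also took in 3 DEAD-box helicases whose main roles lie outside ribosome assembly, and their differences did not share a sign. DBP2, which acts in mRNA-protein assembly, read 11.47 and 11.26 on the deletion arrays and 12.29 and 11.97 on the wild-type arrays. Its difference of −0.77 ± 0.13 (SE) did not pass (adjusted p = 0.0606, limma). DBP5, which releases mRNA at the nuclear pore, read 12.62 and 12.56 on the deletion arrays and 12.59 and 12.51 on the wild-type arrays, with overlapping groups and a difference of 0.041. DBP1, a relative of the translation helicase DED1, read 9.14 and 9.20 on the deletion arrays and 8.78 and 8.88 on the wild-type arrays. It was the 1 gene of the 68 with both deletion arrays above both wild-type arrays, and its difference of 0.34 ± 0.07 (SE) did not pass (adjusted p = 0.0849, limma). Without these 3, the 65 remaining genes had 62 lower and a median of −0.38.

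The size of the difference went with the brightness of the probe set. Across the 68 genes the Spearman correlation of the difference with the mean log2 signal was 0.54, so dimmer probe sets had more negative differences. Both quantities come from the same 4 arrays, and the response of a probe set differs from gene to gene. Median signals were 9.36 for UTPB, 9.58 for UTPA, 10.56 for UTPC and 10.97 for the exosome. Over these groups the median difference shrank in the same order. The factors of both subunits (10.78) and the snoRNP proteins (12.72) did not follow it, with −0.73 and −0.40. How far role and brightness each went with the group medians was not tested. All 68 had a mean signal above background, between 7.97 for UTP18 and 13.04 for NOP58.

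Ribosome assembly genes of other names were set beside the 68 from lists chosen by role. Of 117 such genes, 110 had a lower mean, with a median of −0.34, 5 fell (background 1.29%) and 0 rose (background 1.36%). Among 39 small-subunit factors 3 fell. These were PWP2 of UTPB, KRE33, the acetyltransferase of 18S rRNA (−0.60, adjusted p = 0.0247, limma), and the GTPase gene BMS1 (−0.44, adjusted p = 0.037, limma). Among 55 large-subunit factors ERB1, which binds NOP7, fell by 0.78 (adjusted p = 0.034, limma). Among 11 exosome and TRAMP genes TRF5, a nuclear poly(A) polymerase, fell by 0.96 (adjusted p = 0.0234, limma). Of 12 snoRNP and snoRNP assembly genes 10 were lower and 0 fell, with 5 at an unadjusted p under 0.05 (limma, background 22.2%). The largest differences there were −0.54 for the assembly factor SHQ1 and −0.52 for SNU13. Over the 117 genes the median was −0.47 without deletion replicate 1 and −0.27 without wild type replicate 1. Without wild type replicate 1 the calls of KRE33, BMS1, ERB1 and TRF5 were lost. BMS1 was also lost without deletion replicate 2. With the chromosome IV run left out 3 fell (background 0.826%), without BMS1 and ERB1.

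The lists of polymerase and ribosomal protein genes had smaller median differences than the 68 genes (−0.38) and the 117 assembly genes of other names (−0.34). Of 16 genes of RNA polymerase I and its factors 15 were lower, with a median of −0.27. The initiation factor gene RRN3 fell by 0.71 (adjusted p = 0.0407, limma), a call lost without wild type replicate 1 and with the chromosome IV run left out. RPA12 and RRN11 had larger differences, −0.91 and −0.81, that did not pass (adjusted p = 0.0996 and 0.0989, limma). Of 18 genes of RNA polymerase III and its factors 15 were lower, with a median of −0.15, and 0 fell, with 3 at an unadjusted p under 0.05 (limma, background 22.2%). RPC17 and RPC25 had the largest differences, −0.53 and −0.35. The 142 probe sets of 122 cytosolic ribosomal protein genes had a median of −0.025, with 93 lower, 0 past the threshold and 2 at an unadjusted p under 0.05 (limma, background 22.2%). Their median signal of 14.32 was far above the 10.26 of the 68 genes. Whether probe sets this bright could show a change of that size was not tested. The largest differences were −0.41 for RPL22B, the minor copy of a paralogous pair, and −0.28 for RPS27A.

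**Figure D4:**
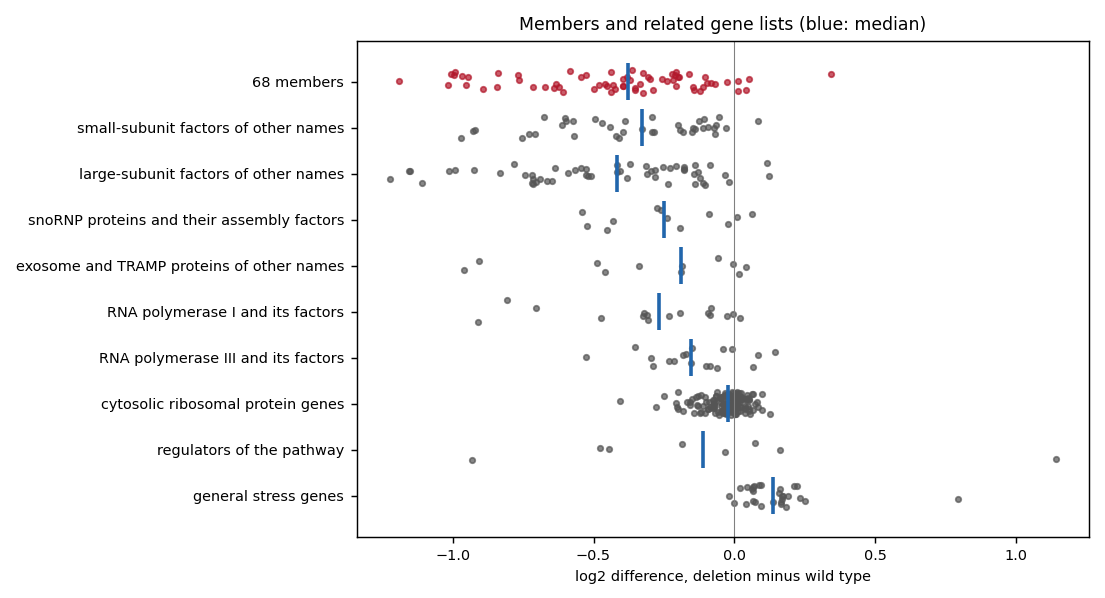
Difference in log2 signal, fun30 deletion minus wild type, for the 68 ribosome biogenesis genes (red) and for related gene lists (grey), with the median of each list as a blue line. Each point is a probe set and vertical scatter within a list has no meaning. The assembly factors of other names run from −1.22 to 0.12 and the 68 genes from −1.19 to 0.34, and the ribosomal protein genes lie close to 0, with a median of −0.025.

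Of 8 regulators of this regulon, TOD6 and CRF1 passed. TOD6, which encodes a repressor of ribosome biogenesis genes, read 8.03 and 7.70 on the deletion arrays and 8.86 and 8.74 on the wild-type arrays and fell by 0.93 ± 0.12 (SE, adjusted p = 0.03, limma), a call lost without wild type replicate 1. CRF1, a corepressor of ribosomal protein genes, rose by 1.14 (adjusted p = 0.00768, limma) and lies in the chromosome IV run. IFH1, the coactivator of ribosomal protein genes, differed by −0.48 (adjusted p = 0.0503, limma), just outside the threshold. Over the alternatives its adjusted p ran from 0.0128 to 0.15 (limma), and it passed without deletion replicate 1, with replicate number as a block, with median centring and with dim probe sets left out. SCH9, a kinase that acts downstream of TORC1, differed by −0.45 (adjusted p = 0.0856, limma). SFP1, an activator of the regulon, had −0.035, FHL1 had −0.19, and the repressors STB3 and DOT6 had 0.16 and 0.071. None of these 4 passed (adjusted p from 0.272 to 0.777, limma).

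In the integration experiment 9 of the 68 genes had a deletion strain with both of its barcodes (tags) measured on both arrays, and 59 had none in the table analysed. Values are log2 ratios less the array median, and since no label names the numerator of the deposited ratio, each strain is placed above or below that median without a direction of integration. Each cassette had 1 array, so there is no replicate check. Over all strains the SD between the tags of a strain was 0.28 on each array. None of the 9 strains lay 2-fold above the median on both arrays (0 of 9, background 1.91%) or 2-fold below (0 of 9, background 0.638%). Both means lay above the median for 5 strains, against 30.2% of all strains, and all 4 tags did so for 4 strains, against 17.6% of the 3690 strains with 4 tags.

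The nop6 strain lay highest of the 9, with tags at 0.67 and 0.68 with the ISU1 cassette and 1.15 and 0.79 with the SOD2 cassette. NOP6 is a small-subunit factor that binds early precursor RNA, and its strain lay above 93.5% of strains with the ISU1 cassette and above 94.9% with SOD2. The strain lacking DBP3, a helicase of large-subunit assembly, had tags at 0.31 and 0.64 with the ISU1 cassette and 0.69 and 0.50 with the SOD2 cassette, and lay above 88.7% and 87.6% of strains. Both strains had all tags above the median by more than the SD between tags. The nop12 strain, which lacks an RNA-binding protein of large-subunit assembly, read 0.19 and 0.24 with the ISU1 cassette and 0.61 and 0.36 with the SOD2 cassette, and the strain of NOP13, the gene of a related RNA-binding protein, read 0.07 and 0.12 with the ISU1 cassette and 0.71 and 0.55 with the SOD2 cassette. With the ISU1 cassette these strains lay within the SD between tags of the median, and with the SOD2 cassette they lay above 83.7% and 88.6% of strains.

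The strain of the exonuclease gene RRP6 read 0.23 and −0.38 with the ISU1 cassette and 0.57 and 0.32 with the SOD2 cassette, so its tags lay on either side of the median on the ISU1 array. The strain of RRP8, which encodes a methyltransferase of the large rRNA, read 0.014 and 0.51 with the ISU1 cassette and −0.014 and 0.38 with the SOD2 cassette, and the nop16 strain read −0.059 and 0.53 with the ISU1 cassette and 0.04 and −0.10 with the SOD2 cassette. In both of these strains the tags of an array differed by more than the distance of their mean from the median. The dbp1 strain read 0.11 and 0.23 with the ISU1 cassette and −0.22 and −0.28 with the SOD2 cassette, above the median on one array and below it on the other. The utp30 strain read −0.67 and −0.10 with the ISU1 cassette and 0.066 and 0.079 with the SOD2 cassette, the lowest of the 9 on the ISU1 array. The median of the 9 strains was 0.21 for ISU1 and 0.44 for SOD2, where all strains gave −0.0094 and 0.010.

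**Figure D5:**
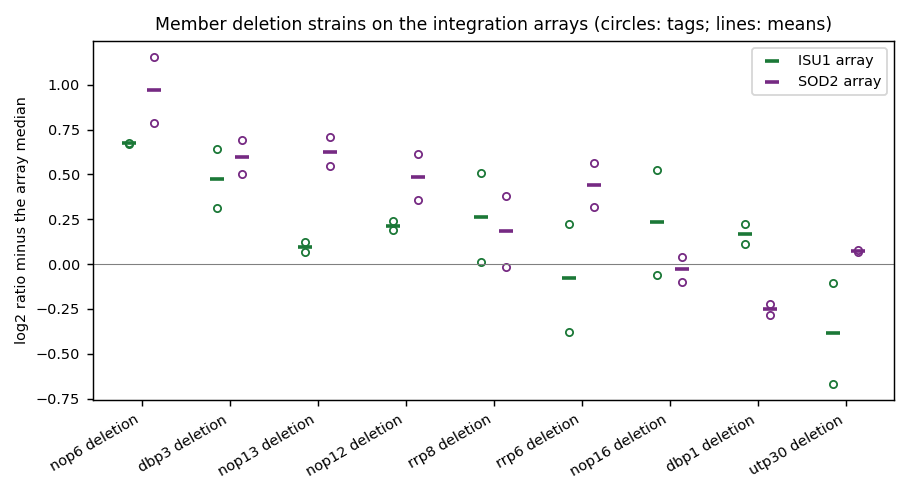
Log2 ratio less the array median for the 9 deletion strains with the ISU1 (green) and the SOD2 (purple) cassette. Circles are the 2 tags of a strain and short lines their mean, sorted by the mean over both arrays. The nop6, dbp3, nop12 and nop13 strains lie above the median with every tag.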

How the data were processed

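The deposited expression table holds log2 signals of probe sets. The authors made them with RMA, per the submitters' processing notes, where limma is named too, without versions. RMA makes arrays alike, so a shift of the whole transcriptome would not be seen. Of 10928 probe sets, 5498 that name 1 gene of the RefSeq table (assembly R64) were tested with limma 3.58.1 in R 4.3.3, deletion against wild type, 2 arrays each, 2-sided, with a threshold of 0.05 on the adjusted p (2 residual and 3.23 prior degrees of freedom). The barcode arrays hold a linear ratio of both channels for each feature, as deposited by the authors. From its log2 the array median was subtracted, and the tags of a strain were averaged. Feature numbers 10971 apart are the tags of 1 strain.

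The members and lists were chosen with earlier results of these data known. Named were members past the threshold, those with a positive difference, the 20 largest differences, the extremes of each role group, every member strain, and, from each related list, up to 4 genes past the threshold, or else the 2 largest. NAN1 and DIP2 were added to complete UTPA and UTPB and other members as examples of their role, both after their values were seen. Alternatives were leaving out each array, a replicate block, quantile normalization, median centring, probe set filters, a variance trend and leaving out the chromosome IV run. The procedure was tested on simulated data with independent noise for each probe set and array. The simulation held no shift shared by many genes on an array, so it does not bear on such shifts. The number of arrays limits the precision.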

Additional observations from a re-analysis of the deposited data

Results flagged for a closer look

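The dbp1 and utp30 strains were singled out because both tags lay on one side of the median on the ISU1 array and both on the other side on the SOD2 array. For dbp1 the SOD2 array minus the ISU1 array was −0.42 (log2), from above the median to below it. For utp30 it was 0.46, from below to above. The difference was not tested in either strain, since each cassette has 1 array.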

How the results depend on the processing

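The median difference of the 68 genes stayed negative under every alternative run, from −0.53 to −0.22 over the fits that left out 1 array and at −0.35 with quantile normalization. The number of genes that fell ranged from 1 to 36 over the fits that left out 1 array, against 5. It was 8 with an intensity trend (background 1.67%), where DBP2, DBP10 and UTP18 were added. It was 2 with the chromosome IV run left out (background 0.826%), where fewer small p-values enter the adjustment. Quantile normalization, median centring and both probe set filters left the same 5 genes. With replicate number as a replicate block, 43 genes fell and 1 rose, DBP1, where 9.51% of all probe sets fell. The labels give these numbers no shared day or batch. Deviations of same-numbered arrays correlated with r = 0.26 over all probe sets and 0.38 over the 68 genes, which with 2 pairs does not establish pairing. Without wild type replicate 1 the calls of UTP4, UTP13, RRP12 and MAK16 were lost, and without wild type replicate 2 that of RRP12. Among genes named with differences near 0, signs turned when 1 array was left out: the values ranged from −0.0025 to 0.11 for RPF1, −0.027 to 0.050 for RRP43, −0.13 to 0.15 for UTP20 and −0.00018 to 0.081 for DBP5. The median position of the 9 strains was 0.22 over both arrays and all tags, 0.39 with the first tags only and 0.44 on the SOD2 array alone. The cause of these shifts was not tested.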

Other observations

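The chromosomal neighbours of the 68 genes were examined along the RefSeq gene order, in a comparison chosen after the values above were known. A single pair of the 68 genes lies side by side, NOC4 and RRP15, whose differences were −0.32 and −0.48. The counts below leave out only the 68 genes, so they hold genes of the related lists, such as RIX1, PWP1, IFH1 and SSF1. Measured genes that lie upstream of a member in the opposite orientation, and so share its upstream region, numbered 31. Of these, 23 had lower means in the deletion (background 50.7%). The median of the 31 was −0.064, and 0 passed the threshold of limma (background 1.29% fell and 1.36% rose). Of 97 other adjacent genes 49 were lower (background 50.7%), with a median of −0.0075, and 1 rose past the threshold (background 1.36%). That gene was DNL4, the DNA ligase of end joining next to UTP23, which rose by 0.54 (adjusted p = 0.0367, limma). It no longer passed without fun30 deletion replicate 2, without wild type replicate 1 and with the chromosome IV run left out.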
